A study of Mus musculus with 8 samples.

Results

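The 8 genes described here belong to sterol synthesis and its regulator SREBP2: Srebf2, Insig1, Hmgcs1, Idi1, Fdft1, Sqle, Lss and Cyp51. They were chosen by symbol, as probe sets that the platform annotation gives to that gene alone, and are 8 of the 19505 genes measured. Each had 1 probe set. Transcripts were measured on Affymetrix mouse arrays in hematopoietic stem cells of mice aged 6 to 10 weeks. The cells were sorted from bone marrow for c-Kit, Sca-1 and CD150 on their surface, and against CD48 and lineage markers. The strain and genotype are not given in the sources used here. All cells were kept in MyeloCult medium with stem cell factor at 100 ng/ml and Primocin. For 16 h, 4 cultures received eltrombopag at 10 µg/ml and 4 received sterile water, the vehicle. Eltrombopag, taken by mouth, activates the thrombopoietin receptor and also binds iron, and its receptor activity is known for the human and not the mouse receptor. The design asks how the drug changes transcript levels in these cells. The labels number the arrays 1 to 4 in each group as biological replicates. They do not say which animals or pools stand behind an array, and p-values cover only the spread seen between these arrays.

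SREBP2, the product of Srebf2, is made as a membrane protein of the endoplasmic reticulum. When sterols are scarce, Scap escorts it to the Golgi, where proteases release the part that enters the nucleus and raises transcription of the enzymes of cholesterol synthesis. When sterols are plentiful, Insig proteins hold Scap back. In blood stem cells, cholesterol efflux through Abca1 and Abcg1 is known to restrain proliferation. The transcript of Srebf2 does not show how much SREBP2 is cleaved, so its targets are the usual transcript readout of its activity.

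No sterol gene separated the 2 groups in the test. limma called 0 of the 8 genes at an adjusted p under 0.05, where it called 0% of all genes tested, and the adjusted p was 0.99978 for every one of the 8. Before adjustment, 0 of the 8 had p under 0.05, against 3.33% of all genes. The 95% interval of the difference lay within a 2-fold change in either direction for all 8 and within a 1.5-fold change for 7. The exception was Idi1, whose interval reached down to 0.64-fold in this fit without the replicate number. The values are log2 levels of probe sets, in which brightness differs between probes, so levels are compared between arrays and not between genes. In bulk RNA, fewer cells of a type and less RNA per cell cannot be told apart.

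The promoters are shown first because SREBP2 acts through a short sequence there, the sterol regulatory element (SRE), usually beside a CCAAT box that binds NF-Y. RefSeq promoter windows (build GRCm38.p6), which run from 250 bases before to 50 bases after the start of transcription, were matched by symbol for 6 of the 8 genes, all but Sqle and Fdft1. Hmgcs1 is shown as the only one of the 6 with a match to the SRE letters TCACNCCAC. Srebf2, Insig1 and Idi1 are shown as the genes lowest in both arrays numbered 1, described further on. Capitals mark matches to TCACNCCAC, to the shorter core TCACNNCA and to CCAAT, on either strand. The windows lie at chr13:119690101-119690400 (plus strand) for Hmgcs1, chr15:82147019-82147318 (plus strand) for Srebf2, chr5:28071162-28071461 (plus strand) for Insig1 and chr13:8885356-8885655 (plus strand) for Idi1, and are written 5′ to 3′ in the direction of transcription.
Hmgcs1: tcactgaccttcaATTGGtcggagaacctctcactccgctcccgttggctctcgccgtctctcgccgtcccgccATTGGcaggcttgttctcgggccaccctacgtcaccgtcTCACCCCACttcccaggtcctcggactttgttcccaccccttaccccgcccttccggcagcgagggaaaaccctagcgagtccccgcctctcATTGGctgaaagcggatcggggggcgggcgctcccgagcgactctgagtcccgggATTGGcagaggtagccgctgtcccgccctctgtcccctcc
Srebf2: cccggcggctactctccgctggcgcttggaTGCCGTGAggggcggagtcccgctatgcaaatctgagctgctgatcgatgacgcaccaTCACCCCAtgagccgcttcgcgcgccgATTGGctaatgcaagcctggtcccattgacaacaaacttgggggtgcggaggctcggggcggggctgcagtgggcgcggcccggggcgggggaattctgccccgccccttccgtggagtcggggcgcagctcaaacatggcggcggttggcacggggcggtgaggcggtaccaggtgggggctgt
Insig1: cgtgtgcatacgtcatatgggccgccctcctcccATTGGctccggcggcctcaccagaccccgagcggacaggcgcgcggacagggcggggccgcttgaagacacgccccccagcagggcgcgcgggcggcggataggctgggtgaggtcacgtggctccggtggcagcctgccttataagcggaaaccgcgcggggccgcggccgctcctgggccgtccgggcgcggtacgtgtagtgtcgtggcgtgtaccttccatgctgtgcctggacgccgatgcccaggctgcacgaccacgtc
Idi1: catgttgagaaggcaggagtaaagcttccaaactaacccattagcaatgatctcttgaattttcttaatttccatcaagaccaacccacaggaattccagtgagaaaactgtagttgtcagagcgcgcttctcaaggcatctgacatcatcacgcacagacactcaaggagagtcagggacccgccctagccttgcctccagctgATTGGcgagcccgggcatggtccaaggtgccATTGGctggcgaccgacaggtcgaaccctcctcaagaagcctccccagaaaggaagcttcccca

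The letters TCACNCCAC were found in 1 of the 6 windows and in 1.24% of all 32851 promoter windows. TCACNCGAC was found in 0 of the 6 and in 0.31% of all windows. The shorter core TCACNNCA was chosen after the windows were seen. It overlaps TCACNCCAC and was found in 3 of the 6, namely Hmgcs1, Srebf2 and Cyp51, and in 13.8% of all windows. The cores with 1 base on each side are set side by side, with the core in capitals and the position of its first base counted from the start of transcription as 0. The copies of Hmgcs1 at -137, Srebf2 at -162 and Cyp51 at -88 lie on the strand as written, and the second Srebf2 copy, whose first base along the window is at -220, lies on the other strand.
Hmgcs1 at -137: cTCACCCCAc
Srebf2 at -162: aTCACCCCAt
Cyp51 at -88: aTCACCTCAg
Srebf2 at -220: cTCACGGCAt

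CCAAT was found in 6 of the 6 windows, against 37.4% of all windows, and the GC box GGGCGG likewise in 6 of 6, against 35.7%. Hmgcs1 held 4 CCAAT matches, at -237, -176, -45 and 10, and Idi1 held 2, at -45 and -14. The E-box CACGTG, which reads the same on both strands, was found in the Insig1 window alone among the 6, at -101, against 7.15% of all windows. These are matches of letters in a 300-base window, and binding was not measured.

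**Figure D1:**
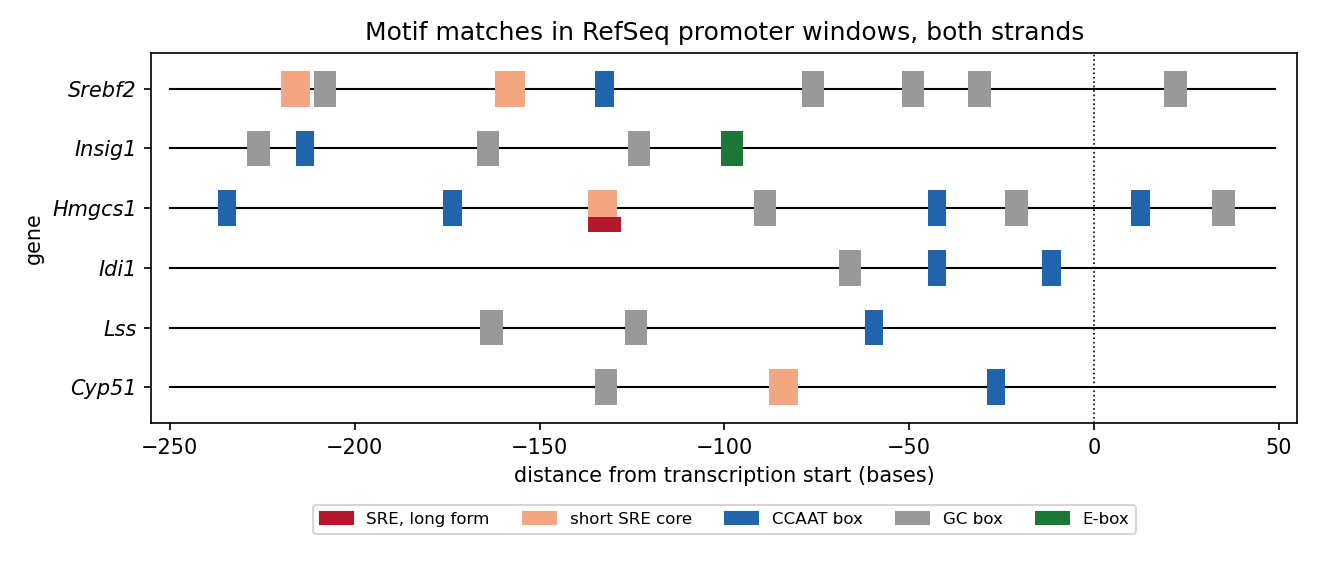
Motif matches on both strands in the promoter windows of 6 sterol genes, by distance in bases from the start of transcription (dotted line at 0). Blocks mark the long SRE form (red, Hmgcs1 at -137), the short core (light orange), CCAAT (blue), the GC box (grey) and the E-box (green, Insig1 at -101); every window holds a CCAAT match and a GC box.

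Before the single genes, the arrays as a whole were compared. Their correlations across genes lay between 0.9868 and 0.9933, and the first principal component (25.5% of the variance) put arrays 1 and 2 of both groups at -18.8 to -11.0 and arrays 3 and 4 of both groups at 14.0 to 15.6. Uty and Kdm5d, from the Y chromosome, had high levels in both arrays numbered 3 (6.98 to 7.71 and 6.36 to 7.08) and low in the other 6 (3.02 to 3.31 and 3.37 to 3.81). Of the markers that define the sort, Kit lay between 12.82 and 12.94 on all arrays, Slamf1 (CD150) between 6.19 and 7.75, and Cd48, against which the cells were sorted, between 5.66 and 6.55. Ly6a (Sca-1) was not analysed here. Of the 6 stem cell markers measured, limma called 0. It called 0% of all genes, so counts of called markers cannot tell whether the cell mix differed. Among the markers of other cells, limma called 0 of 3 genes for progenitors outside the CD48 gate, 0 of 7 T and NK cell, 0 of 4 B cell, 0 of 6 neutrophil and monocyte, 0 of 3 erythroid, 0 of 4 megakaryocyte and 0 of 7 stromal and endothelial genes between the groups. Their mean levels per array overlapped between vehicle and eltrombopag, for example 7.75 to 8.28 against 8.09 to 8.23 for megakaryocyte genes, except for the stromal and endothelial genes, at 6.383 to 6.473 with vehicle and 6.217 to 6.375 with eltrombopag. Of those 7, 7 were lower with eltrombopag by group means, but only Col1a1 was lower in all 4 pairs. The means of 2 of the 7 lay under the mean lower quartile of the arrays, 4.96. Of the 4 megakaryocyte genes 4 were higher (median 0.198), with Ppbp at an unadjusted p of 0.0495 in limma. Ppbp was higher in numbers 1 and 2 (1.095 and 1.177) and lower in numbers 3 and 4 (-0.23 and -0.023). With the replicate number in the fit, its unadjusted p in limma was 0.085. The part of these marker genes in the results was not tested.

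Srebf2 encodes the transcription factor itself. Its log2 level with vehicle was 11.38, 11.60, 11.58 and 11.59 in arrays 1 to 4, and with eltrombopag 11.40, 11.51, 11.59 and 11.49. Both arrays numbered 1 were the lowest of the 8, and the groups overlapped. The means were 11.54 ± 0.10 (SD, n = 4) and 11.50 ± 0.078 (SD, n = 4). The log2 difference, eltrombopag minus vehicle, was -0.038 (SE 0.094), with a 95% interval from -0.25 to 0.17. Srebf2 was higher with eltrombopag in numbers 1 and 3 (0.021 and 0.018) and lower in numbers 2 and 4 (-0.088 and -0.10). Its whole range over the 8 arrays was 0.218, and 96.7% of all genes had a wider one.

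Insig1 encodes the sterol-sensing protein that retains Scap, and is itself a target of SREBP2. With vehicle it stood at 8.29, 8.62, 8.62 and 8.52, and with eltrombopag at 8.08, 8.58, 8.79 and 8.68. Again both arrays numbered 1 were lowest. The other 6 arrays lay within 8.52 to 8.79, with both groups among them. The means were 8.51 ± 0.16 and 8.53 ± 0.31 (SD, n = 4 each). The log2 difference was 0.023 (interval -0.32 to 0.37), lower with eltrombopag in numbers 1 and 2 and higher in numbers 3 and 4. No direction is given for it, since its sign turned when single arrays were left out.

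Hmgcs1 encodes the cytosolic synthase that makes HMG-CoA, at the entry to the mevalonate pathway. It read 8.44, 8.96, 8.55 and 8.79 with vehicle and 8.78, 9.13, 8.95 and 8.21 with eltrombopag. It was higher with eltrombopag in 3 of 4 pairs, by 0.35, 0.17 and 0.40 in numbers 1 to 3, and lower by a log2 difference of -0.57 in number 4. Eltrombopag array 4 was the lowest of the 8, while eltrombopag array 2 was the highest. The mean difference was 0.086 (interval -0.34 to 0.51) and became 0.27 without eltrombopag array 4. It turned to -0.034 without eltrombopag array 2, so it too has no settled direction.

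Idi1 encodes the isomerase that interconverts the activated isoprene units from which sterols are built. With vehicle it was at 6.12, 6.64, 7.03 and 6.22, and with eltrombopag at 6.10, 6.19, 6.71 and 6.26. Both arrays numbered 3 were above the other 6 and both numbered 1 below them. The means were 6.50 ± 0.42 (SD, n = 4) and 6.31 ± 0.27 (SD, n = 4). The difference was -0.19 (interval -0.64 to 0.27), made up of -0.45 and -0.32 in numbers 2 and 3 and of -0.023 and 0.041 in numbers 1 and 4. Without vehicle array 3 it was near 0, at -0.012, and without both arrays numbered 3 it was -0.15. With the replicate number in the fit, the interval of Idi1 was -0.46 to 0.078 (adjusted p 0.984 in limma).

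Fdft1, squalene synthase, commits the pathway to sterols. It was the only one of the 8 whose groups did not overlap. The vehicle levels were 10.26, 10.26, 10.21 and 10.21, and the eltrombopag levels 10.16, 10.17, 10.14 and 10.17. The eltrombopag arrays were lower in all 4 pairs, by differences from -0.098 to -0.037, as 5.87% of all genes were. Over all genes, 2.12% had groups that did not overlap in either direction, and 1% did so with eltrombopag lower. The means were 10.23 ± 0.031 (SD, n = 4) and 10.16 ± 0.013 (SD, n = 4), a difference of -0.074 (interval -0.25 to 0.11), or 0.95-fold. Its own residual SD of 0.024 was far below the prior SD of 0.174 that limma fitted over all genes, and the test used a moderated SD of 0.12. limma gave it an unadjusted p of 0.385 and an adjusted p of 0.99978. Fdft1 was also the steadiest of the 8, with a range over all arrays of 0.122, and 99.8% of genes had a wider one.

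Sqle, squalene epoxidase, carries out the first oxygen-dependent step. It stood at 9.16, 9.14, 9.14 and 8.995 with vehicle and 8.89, 9.20, 9.05 and 9.14 with eltrombopag. The groups overlapped, with the highest and the lowest of the 8 both in the eltrombopag group. The difference was -0.038 (interval -0.26 to 0.18), higher with eltrombopag in 2 of 4 pairs, and its sign turned without eltrombopag array 1 (0.021).

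Lss, lanosterol synthase, closes the sterol rings. Its levels were 9.27, 9.71, 9.25 and 9.20 with vehicle and 9.61, 9.51, 9.10 and 8.88 with eltrombopag. In both groups arrays 3 and 4 were the lowest values, and vehicle array 1 stood just above them. It was higher with eltrombopag in number 1, by 0.34, and lower in the other 3. The mean difference was -0.083 (interval -0.48 to 0.31), and its sign turned without vehicle array 2 (0.036) or eltrombopag array 4 (0.048).

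Cyp51 encodes the sterol demethylase that acts on lanosterol, and had the smallest unadjusted p of the 8, 0.131 in limma. The vehicle arrays lay close together at 7.89, 7.88, 7.94 and 7.95, and the eltrombopag arrays at 7.90, 7.77, 7.80 and 7.52. Only eltrombopag array 1 lay among the vehicle values. The means were 7.91 ± 0.035 (SD, n = 4) and 7.75 ± 0.16 (SD, n = 4), a difference of -0.17 (interval -0.39 to 0.059). Number 4 gave the largest share, with -0.43, and without eltrombopag array 4 the difference was -0.091.

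**Figure D2:**
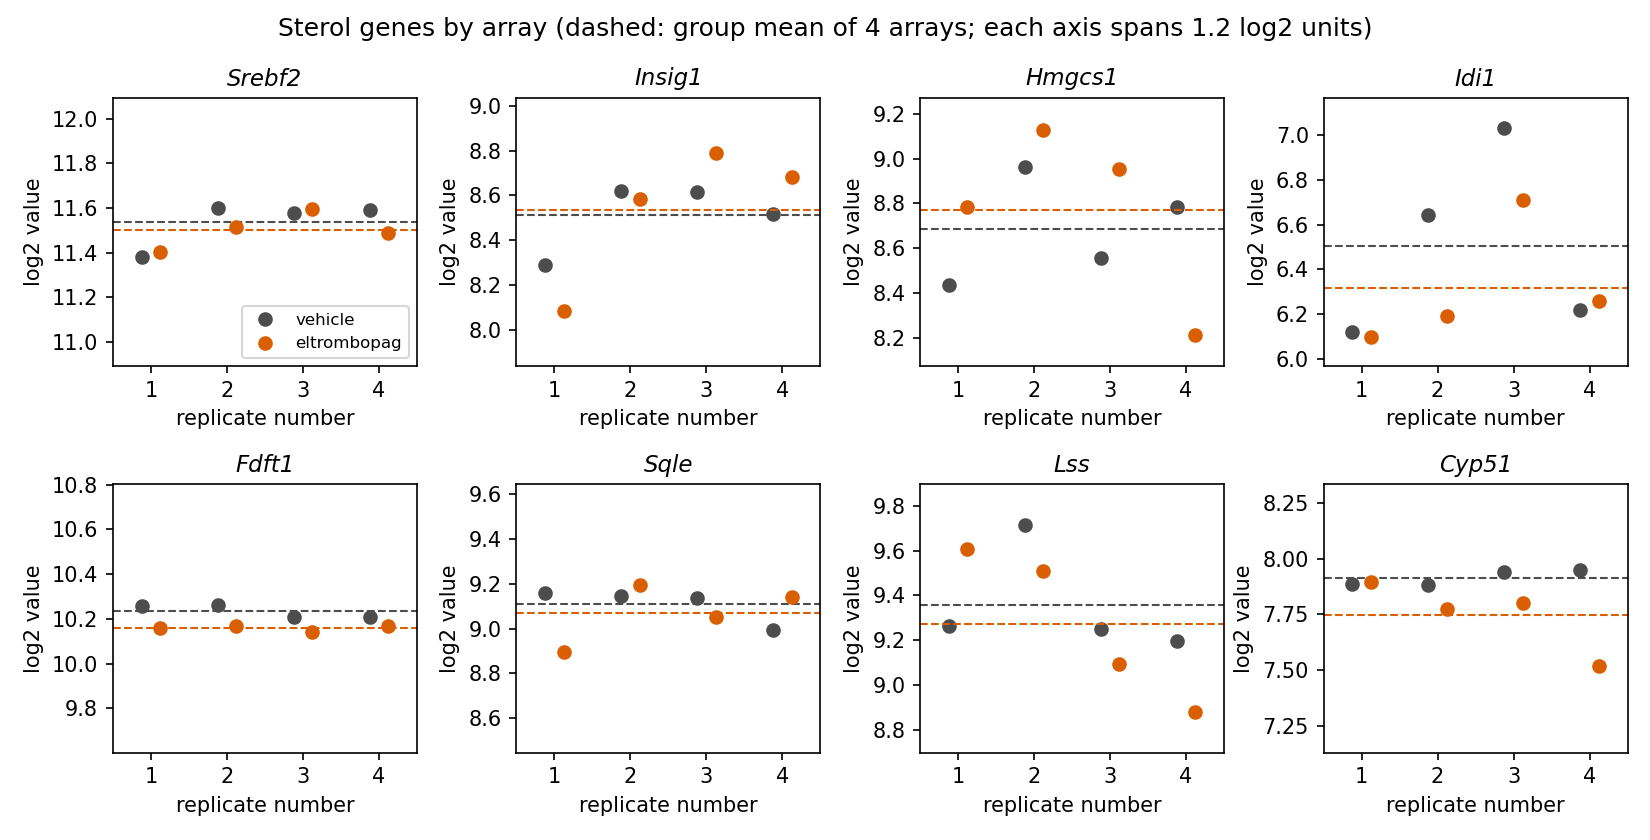
Log2 level of each of the 8 sterol genes (vertical axis, 1.2 units in every panel) by replicate number, for vehicle (grey) and eltrombopag (orange) arrays; dashed lines are group means of 4 arrays. The groups overlap in 7 genes, and in Fdft1 the eltrombopag arrays (10.14 to 10.17) lie under the vehicle arrays (10.21 to 10.26).

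As a group, 2 of the 8 genes were higher and 6 lower with eltrombopag, with a median log2 difference of -0.056. Over all genes 52.3% were higher, with a median of 0.0071. In the pairs the median of the 8 was -0.0063, -0.092, -0.076 and -0.069 for numbers 1 to 4, with 4, 2, 3 and 3 genes higher. The SD of these 4 medians was 0.038. None of the 8 differences passed, and in 4 of them (Insig1, Hmgcs1, Sqle and Lss) the sign turned when 1 array was left out, so the count describes these arrays only.

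In 6 of the 8 genes more of the spread lay between the 4 replicate numbers (3 degrees of freedom) than between the 2 groups (1 degree of freedom). How many of all genes did so was not counted, but their median share was also higher between numbers, at 49.8% against 6.54%. The share of a gene's variance that lay between the 4 numbers was 86.1% for Insig1, 82.2% for Srebf2, 81.2% for Idi1 and 73.8% for Lss, against a median of 49.8% over all genes. It was 51.3% for Hmgcs1 and 15.1% to 30.4% for Fdft1, Cyp51 and Sqle. The share between the 2 groups was 76.1% for Fdft1 and 40.5% for Cyp51, and 0.287% to 8.69% for the other 6, against a median of 6.54%. limma's F test across numbers, with group in the fit and the 2 arrays of a number treated as independent, called 0 of the 8, against 0.21% of all genes. Unadjusted, Idi1 (p 0.00897 in limma) and Insig1 (p 0.0356 in limma) were under 0.05, against 10.2% of all genes. Their adjusted p in limma was 0.338 and 0.455.

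The genes did not follow the numbers alike. Srebf2, Insig1 and Idi1 had both arrays numbered 1 below the other 6, which held for 5.85% of all genes. Idi1 alone had both arrays numbered 3 on top, as did 3.88% of all genes. Eltrombopag array 4 was the lowest of the 8 arrays for Hmgcs1, Lss and Cyp51. The share of all genes lowest in that array was not counted. Across the 8 arrays, 6 of the 28 pairs of sterol genes had a Pearson r over 0.5, or 21.4% of them, against 11.3% of all gene pairs. The range was -0.448 (Insig1 with Lss) to 0.786 (Srebf2 with Insig1, Spearman rho 0.619). Without the pair of arrays farthest from the Srebf2 median, the r of Srebf2 with Insig1 was -0.0013, so it rests on those arrays. These are descriptions over 8 arrays that share numbers, with no test.

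**Figure D3:**
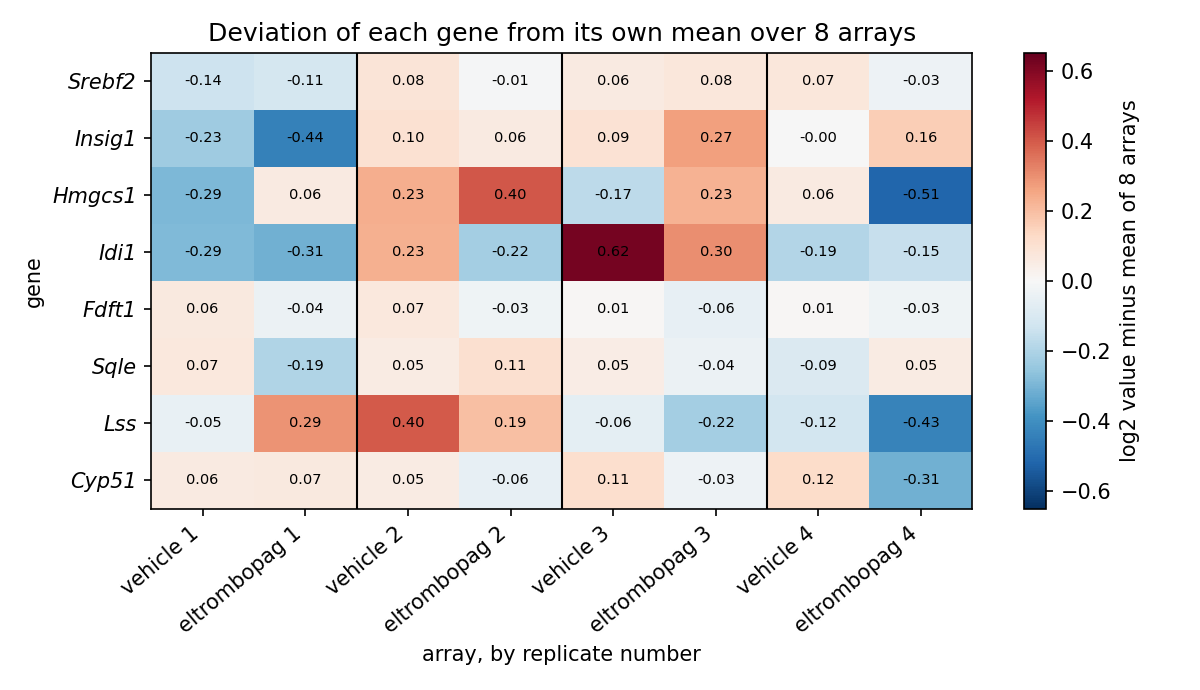
Log2 level of each sterol gene minus its own mean over the 8 arrays (colour and printed value), with arrays ordered by replicate number. The columns of number 1 are low for Srebf2, Insig1 and Idi1, and the column of eltrombopag array 4 is low for Hmgcs1, Lss and Cyp51.

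For likeness of pattern, each of the 8 genes was centred and scaled to an SD of 1 and their mean taken per array. The 8 genes themselves had a Pearson r to that mean of only 0.405 (Sqle) to 0.734 (Srebf2). Among 9406 genes outside the lists and above the median level, the 5 with the highest Pearson r to that mean over the 8 arrays were Sec24c (0.980), a coat subunit of vesicles leaving the endoplasmic reticulum, Wdr82 (0.967), a subunit of histone methyltransferase complexes, Hbs1l (0.951), a ribosome rescue factor, Ddx17 (0.941), an RNA helicase, and Baz1b (0.928), a chromatin protein. For Sec24c the vehicle mean was 9.05 ± 0.25 and the eltrombopag mean 8.86 ± 0.20 (SD, n = 4 each). Such values are the highest of a search over many genes with few arrays.

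The other enzymes of the same pathway were read from a fixed list. Of 16 entries 12 were analysed here. Of these 12, 9 were higher and 3 lower with eltrombopag, with a median log2 difference of 0.029, and limma called 0. Msmo1, which removes methyl groups after the Cyp51 step, had the smallest p on the lower side. It stood at 8.74, 8.96, 8.87 and 8.73 with vehicle and 8.42, 8.74, 8.44 and 8.60 with eltrombopag, a difference of -0.28 (SE 0.11, unadjusted p 0.0267 and adjusted p 0.99978 in limma). It was lower in 4 of 4 pairs, as were 5.87% of all genes, though the groups overlapped. Ebp, a sterol isomerase late in the pathway, had the smallest p on the higher side, with 8.52 ± 0.23 (SD, n = 4) against 8.73 ± 0.20 (SD, n = 4), a difference of 0.21 (interval -0.10 to 0.52). It was higher in 4 of 4 pairs, by 0.18 to 0.24, and with the replicate block the interval was 0.0091 to 0.41 (adjusted p 0.984 in limma). Without vehicle array 1 the difference was 0.12.

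**Figure D4:**
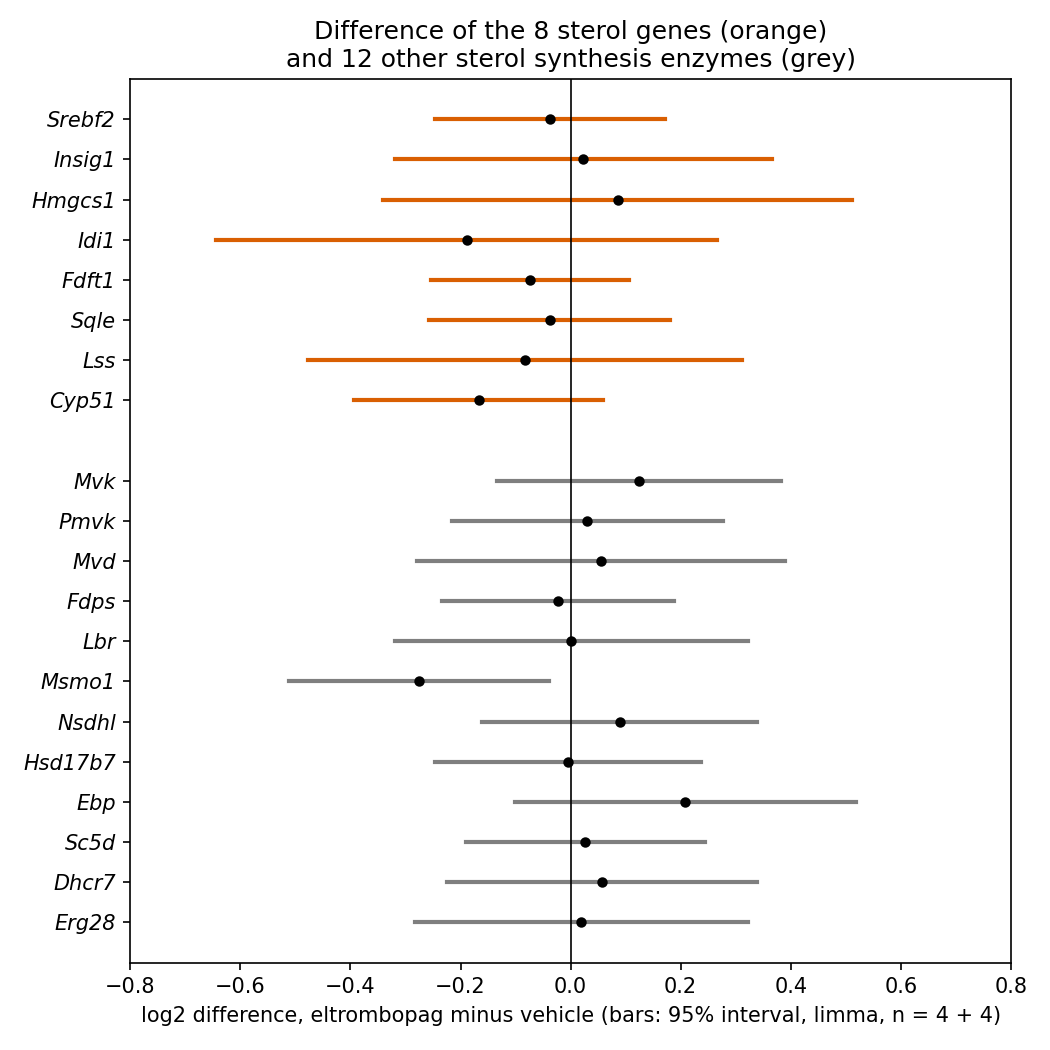
Log2 difference, eltrombopag minus vehicle (horizontal axis; points), with limma's 95% interval (bars, 4 arrays per group), for the 8 sterol genes (orange) and 12 other sterol synthesis enzymes (grey). All 8 orange intervals cover 0; among the grey ones only that of Msmo1 (-0.51 to -0.039, not adjusted over genes) does not.

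Of the genes that process SREBP, 5 of 8 entries were measured, 1 higher and 4 lower (median -0.054), with 0 called. Srebf1 was not analysed here. Mbtps1, the first protease that cuts SREBP, differed by 0.047 (interval -0.16 to 0.26), and by 0.0081 without vehicle array 1. Ubxn8, an adaptor of protein degradation at the endoplasmic reticulum, differed by -0.25 (SE 0.11, adjusted p 0.99978 in limma).

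Sterol uptake and transport held 10 measured genes of 11 entries. Of these 3 were higher and 7 lower (median -0.057), with 0 called. Stard4, a cholesterol carrier of the cytosol and a known SREBP2 target, was at 8.36, 8.57, 8.77 and 8.58 with vehicle and 8.21, 8.27, 8.29 and 7.87 with eltrombopag. Stard4 had the smallest p on the lower side of this list. Its groups did not overlap, with eltrombopag lower, as in 1% of all genes. The difference was -0.41 (SE 0.13), with an unadjusted p of 0.0086 and an adjusted p of 0.99978 in limma. Over all genes, 3.33% had an unadjusted p under 0.05 in limma. Stard3, a late endosomal cholesterol transporter, differed by 0.11 (interval -0.24 to 0.45), and by 0.014 without vehicle array 1 or eltrombopag array 4.

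Among 7 measured genes of the sterol-sensing receptor LXR and of sterol efflux or storage, 4 were higher and 3 lower (median 0.065), with 0 called. Abca1, the cholesterol efflux pump, read 5.37, 6.33, 7.13 and 6.34 with vehicle and 4.78, 5.07, 6.06 and 6.05 with eltrombopag. Its mean of 5.89 lay under the mean array median of 6.68. It was lower in 4 of 4 pairs, as were 5.87% of all genes, with a difference of -0.81 (interval -1.64 to 0.031). With the replicate block the interval was -1.20 to -0.42, not adjusted over genes, and the adjusted p in limma was 0.984. Vehicle array 3 was the highest of the 8. Without it the difference was -0.53, without both arrays numbered 3 it was -0.72, and without vehicle array 1 it was -1.11. Nr1h3, which encodes LXR alpha, differed by 0.43 (interval -0.015 to 0.88), and by 0.22 without both arrays numbered 3. Numbers 1 to 4 gave -0.024, 0.23, 1.07 and 0.45. With the block the Nr1h3 interval was 0.024 to 0.84, not adjusted over genes, and the adjusted p in limma was 0.984. Without the block, the adjusted p in limma was 0.99978 for Abca1 and Nr1h3. Abcg1, named above with Abca1 for efflux, differed by 0.065 (interval -0.29 to 0.42).

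The SREBP1 and fatty acid synthesis list had 3 of 11 genes higher (median -0.065) and the nonsterol isoprenoid branch 4 of 8 (median -0.032), with 0 called in each. Elovl5, a fatty acid elongase, differed by 0.14 (interval -0.14 to 0.42) and Me1, malic enzyme, by -0.22 (interval -0.51 to 0.078). Elovl5 came to 0.055 without eltrombopag array 2 and 0.067 without vehicle array 4, and Me1 to -0.13 without eltrombopag array 4. Nus1, a subunit of the enzyme that makes dolichol chains, differed by -0.27 (SE 0.10, adjusted p 0.99978 in limma). Its groups did not overlap, with eltrombopag lower, as in 1% of all genes. Fnta, the shared subunit of the enzymes that attach isoprenoids to proteins, differed by 0.27 (interval -0.058 to 0.60). Number 1 gave 0.90, against -0.088, 0.093 and 0.18 in the other pairs, and without vehicle array 1 the difference was 0.13.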

How the data were processed

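The values were deposited by the authors as log2 expression, 1 per probe set and array, for 22206 probe sets on 8 arrays. RMA, oligo and limma appear in the submitters' processing notes, with no versions. RMA sets arrays to a common distribution, so differences in total RNA are removed. The annotation gave 19572 probe sets 1 gene symbol, 0 several, and left 2634 unnamed here. The highest-mean probe set stood for each of 19505 genes, with no filter. About 10 ng of RNA per array was amplified, per the labels' protocols. No genome build for the probe sets is given in the sources used here.

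limma 3.58.1 in R 4.3.3 (lmFit, eBayes, two-sided) compared the groups over all genes, with Benjamini-Hochberg adjustment over all genes and calls at adjusted p under 0.05. A second fit added the replicate number. Precision is limited by the number of arrays: for the median gene the 95% interval reached 0.278 to either side of the difference.

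The members and lists were chosen with earlier results of these data known. Of 122 list entries 101 were measured. Genes of the other lists were named by the smallest p in each direction. Deviations from the group means correlated at 0.232, 0.286, 0.181 and 0.133 for arrays of the same number, all over 0.1, and at -0.203 to 0.167 for different numbers. Numbers 1, 2 and 3 lay above the highest value for different numbers, 0.167, but number 4, at 0.133, lay below it. These correlations therefore do not establish a match between the arrays of number 4, and no label states one for any number. A pair in this text means the vehicle and eltrombopag arrays that share a number. Every SE, interval and p comes from the fit without the number unless the replicate block is named. The block was an alternative, with other scalings, filters, probe sets and left-out arrays.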

Additional observations from a re-analysis of the deposited data

Results flagged for a closer look

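In 20 genes, or 40 groups of 4 arrays, the gap between an extreme array and its nearest neighbour was divided by the range of the group. The ratio was above Dixon's 95% critical value in 3 groups, and chance flags about 1 in 20 groups, here 2. For Srebf2, vehicle array 1 read 11.38 and the remaining vehicle arrays 11.58 to 11.60 (ratio 0.886). For Sqle, vehicle array 4 read 8.995 and the others 9.14 to 9.16 (ratio 0.873). For Lss, vehicle array 2 read 9.71 and the others 9.20 to 9.27 (ratio 0.866).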

How the results depend on the processing

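The count of genes called between the groups was 0 in all 20 alternatives, and the median difference of the 8 sterol genes stayed between -0.079 and -0.021. The replicate block called 0 genes and changed no call; with it the adjusted p in limma of the 8 lay at or above 0.984. Of the 8 genes, 4 kept their sign in the alternatives that held them (Srebf2, Idi1, Fdft1 and Cyp51). A filter on dim genes dropped Idi1 and Abca1. A kept sign is not a settled direction: Srebf2 came to -0.0058 without eltrombopag array 1, and Idi1 to -0.012 without vehicle array 3. Without both arrays numbered 3, the difference was -0.018 for Hmgcs1 and -0.027 for Insig1. In numbers 1 and 2 only it was -0.12 for Insig1, 0.069 for Lss and -0.0093 for Stard3, and in numbers 3 and 4 only -0.0875 for Hmgcs1 and 0.030 for Sqle. Leaving out 1 array moved Hmgcs1 between -0.034 and 0.27, Insig1 between -0.062 and 0.17, Lss between -0.20 and 0.048 and Sqle between -0.080 and 0.021. The 41 genes called across numbers became 198 with a trended robust prior and 12, 10, 2 and 13 without both arrays of number 1, 2, 3 or 4, where fewer arrays were fitted, and ran from 3 to 17 without 1 array; no sterol gene was called in any of them. The cause was not tested.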

Other observations

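Insig2, which like Insig1 retains Scap, was singled out once the values had been seen and did not pass in limma. It was at 7.11, 6.77, 6.56 and 6.88 with vehicle and 6.96, 6.60, 6.00 and 6.41 with eltrombopag. Its mean of 6.66 lay just under the mean array median of 6.68. Eltrombopag arrays were lower in 4 of 4 pairs, as in 5.87% of all genes. The groups overlapped, with a log2 difference of -0.34 (interval -0.76 to 0.086). With the replicate block the interval was -0.59 to -0.086, not adjusted over genes, and the adjusted p in limma was 0.984.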
